A study of Mus musculus with 9 samples.

Results

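The 10 histone lysine methyltransferase genes described here were Ehmt1, Ehmt2, Suv39h1, Suv39h2, Setdb1, Mll2, Mll3, Mll5, Ezh1 and Ezh2, taken by symbol from a table of 21423 genes. All 10 symbols were found, and 9 of the genes were above the level filter, an average of 1 RPKM or more across 9 sequencing lanes, as were 14051 genes in all. Suv39h2 fell short of it and was not compared. RPKM are reads per kilobase of gene model, scaled to the reads of the lane, so levels of different genes can be set side by side per length. RNA came from the nucleus accumbens, the ventral part of the striatum and a centre of reward learning, of adult male C57BL/6 mice aged 2 to 5 months. Saline mice received intraperitoneal saline (10 ml/kg/day) for 7 days, and cocaine mice received intraperitoneal cocaine for 7 days, and both were killed 24 h after the last injection. Withdrawal mice received the same 7 days of cocaine and were killed 8 days after the last injection. The labels name cocaine doses of 10 and 20 mg/kg/day without tying a dose to a sample. RNA of 8 mice was pooled into 1 library per group, and each library was run in 3 lanes, so lanes repeat the sequencing and not the treatment.

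Histone lysine methyltransferases place methyl groups on lysines of histone tails. Methylation of histone H3 lysine 4 (H3K4), the mark of the MLL family, is found at active promoters and enhancers. Methylation of lysine 9 (H3K9), placed by Ehmt1, Ehmt2, the Suv39h enzymes and Setdb1, and of lysine 27 (H3K27), placed by Ezh1 and Ezh2 in Polycomb repressive complex 2 (PRC2), is found at silent chromatin. In the nucleus accumbens, Ehmt2 (G9a) and its dimethylation of H3K9 are known from studies of the response of medium spiny neurons to repeated cocaine.

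To be called higher or lower, a gene had to differ 1.5 times or more in mean log2(RPKM + 0.5), and the lanes of both libraries had to lie apart. Differences are given on that scale ± the standard error over lanes, an error of sequencing and not of mice, and levels are means ± SD over 3 lanes. With 1 library per group, no difference between treatments has a replicate check, and no p-value about the treatments is given. Both the cocaine and the withdrawal library were compared with the same saline library, so these comparisons share that library. In pooled tissue, fewer cells of a type and less RNA per cell cannot be told apart. The saline library held 26006605 reads in total, the cocaine library 24219333 and the withdrawal library 19452882, and 1 read in a gene of 2 kb was worth 0.0416 to 0.0901 RPKM depending on the lane.

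Mll2 and Mll3 were the only members called in any comparison, and Ehmt2 was the member with the highest level. The 250 bases before their start sites are shown because Mll2 and Mll3 differed together between the libraries while Ehmt2 was not called. Sequences are from RefSeq on GRCm38.p6, read 5′ to 3′ on the gene's strand. Capitals mark a GC box (GGGCGG, on either strand), the element bound by Sp1-type factors, and in Ehmt2 also an E-box (CACGTG).
Mll2, chr15:98871206-98871455, minus strand: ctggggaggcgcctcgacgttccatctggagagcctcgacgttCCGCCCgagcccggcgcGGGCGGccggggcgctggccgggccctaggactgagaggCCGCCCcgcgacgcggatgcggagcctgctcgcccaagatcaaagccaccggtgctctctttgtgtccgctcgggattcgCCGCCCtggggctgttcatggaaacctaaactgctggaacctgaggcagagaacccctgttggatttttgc
Mll3, chr5:25498784-25499033, minus strand: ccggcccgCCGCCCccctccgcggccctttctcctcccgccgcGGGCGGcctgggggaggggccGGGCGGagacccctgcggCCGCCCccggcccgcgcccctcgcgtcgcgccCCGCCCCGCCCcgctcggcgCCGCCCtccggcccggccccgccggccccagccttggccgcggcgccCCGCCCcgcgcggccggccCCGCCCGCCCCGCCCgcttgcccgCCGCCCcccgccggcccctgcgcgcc
Ehmt2, first of 2 start sites, chr17:34898224-34898473, plus strand: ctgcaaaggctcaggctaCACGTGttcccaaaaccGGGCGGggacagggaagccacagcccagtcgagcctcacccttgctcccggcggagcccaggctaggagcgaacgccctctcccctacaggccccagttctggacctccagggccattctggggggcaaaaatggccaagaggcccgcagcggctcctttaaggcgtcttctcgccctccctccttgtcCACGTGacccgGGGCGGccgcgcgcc

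The Mll3 window was 91.6% G and C, held 12 GC boxes, some overlapping, and had 48 CpG dinucleotides, more than 99.8% of the 32851 RefSeq windows of this length, whose median was 6. The Mll2 window held 26 CpG and 4 GC boxes, and the Ehmt2 window shown 18 CpG, 2 GC boxes and 2 E-boxes. The window of the second Ehmt2 start, chr17:34898720-34898969, held 36 CpG, 4 GC boxes and 1 E-box, which is more CpG than in the Mll2 window and as many GC boxes. A GC box was present in 32.7% of all windows and an E-box in 6.02%. In the windows of Mll2, Mll3 and Ehmt2, neither strand held a cAMP response element (TGACGTCA, in 1.55% of windows) or its shorter form TGACG (17.8%). Also absent there were the letters of an AP-1 site (TGANTCA, 6.75%), an ETS site (CCGGAAG, 6.91%) and a TATA box (TATAAA, 12.4%). Windows were matched for 9 of the 10 members, all but Mll5. Among the other matched members, Suv39h2 held 1 cAMP response element, Suv39h1 and Suv39h2 held TGACG, and Setdb1 held 2 ETS sites. Ehmt1 held 26 CpG and 2 GC boxes, and Suv39h2 27 CpG and 3 GC boxes. The windows of the 2 Suv39h1 starts held 11 and 25 CpG, and those of Setdb1, Ezh1 and Ezh2 held 13, 14 and 23. Each of these had 1 GC box or none. The CpG count of Mll2 was thus matched by Ehmt1, which had no call. These matches describe letters and not binding.

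Mll2 and Mll3 encode large H3K4 methyltransferases known from enhancers. RefSeq gives Mll2 as an older symbol of both Kmt2d and Kmt2b. The gene model behind the Mll2 values was 18296 bp long, near the 19931 bp of Kmt2d in the GENCODE reference and not the 9596 bp of Kmt2b, which the table holds separately as Wbp7 with 9514 bp. The Mll2 row is therefore read as Kmt2d. Mll3 is Kmt2c, with a gene model of 19998 bp against 20291 bp in the reference.

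Mll2 was measured at 13.9, 13.2 and 12.5 RPKM in the saline lanes, at 24.6, 23.4 and 23.2 RPKM in the cocaine lanes and at 29.2, 28.2 and 28.4 RPKM in the withdrawal lanes. The 3 libraries did not overlap, with saline lowest and withdrawal highest. Mll2 rose 1.80 times in the cocaine library (log2 difference 0.82 ± 0.049) and 2.17 times in the withdrawal library (1.09 ± 0.044) relative to saline. These values rest on 6330, 10509 and 10174 reads in saline, cocaine and withdrawal. Withdrawal against cocaine gave 0.27 ± 0.030, with lanes apart but under the size limit, so it was not called.

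Mll3 was measured at 3.84, 3.73 and 4.13 RPKM in saline, 6.23, 6.70 and 6.51 in cocaine and 6.67, 6.60 and 7.17 in withdrawal. All cocaine and withdrawal lanes lay above all saline lanes, while the cocaine and withdrawal lanes overlapped. Mll3 rose 1.66 times in cocaine (0.67 ± 0.048) and 1.75 times in withdrawal (0.73 ± 0.052), from 2028 reads in saline, 3136 in cocaine and 2659 in withdrawal. Its difference between withdrawal and cocaine was 0.07 ± 0.045, without a call. The ratio of Mll2 to Mll3 was 3.03 to 3.60 in the saline lanes, 3.49 to 3.95 in cocaine and 3.96 to 4.38 in withdrawal. The withdrawal lanes lay above saline but almost touched cocaine, with a lowest lane of 3.958 beside a highest cocaine lane of 3.951. RefSeq places the pseudogenes Hspe1-ps3 and Gm18343 within Mll3, so a share of its reads could belong to them.

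Mll5 (Kmt2e) is a SET domain protein grouped with the MLL family whose own catalytic activity is disputed. It was measured at 18.2, 16.1 and 17.8 RPKM in saline, 20.1, 21.9 and 20.2 in cocaine and 21.5, 21.3 and 20.4 in withdrawal. All cocaine and withdrawal lanes were above the saline lanes, but the differences of 0.25 ± 0.065 and 0.27 ± 0.057 were under the size limit and were not called. Mll5 overlaps Srpk2 and the long non-coding RNA 5031425E22Rik in RefSeq, and whether reads were counted by strand was not given in the sources used here, so its level is uncertain. Summed over the 3 H3K4 genes, the lanes spanned 33.1 to 35.9 RPKM in saline, 49.9 to 52.0 in cocaine and 56.0 to 57.4 in withdrawal.

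**Figure D1:**
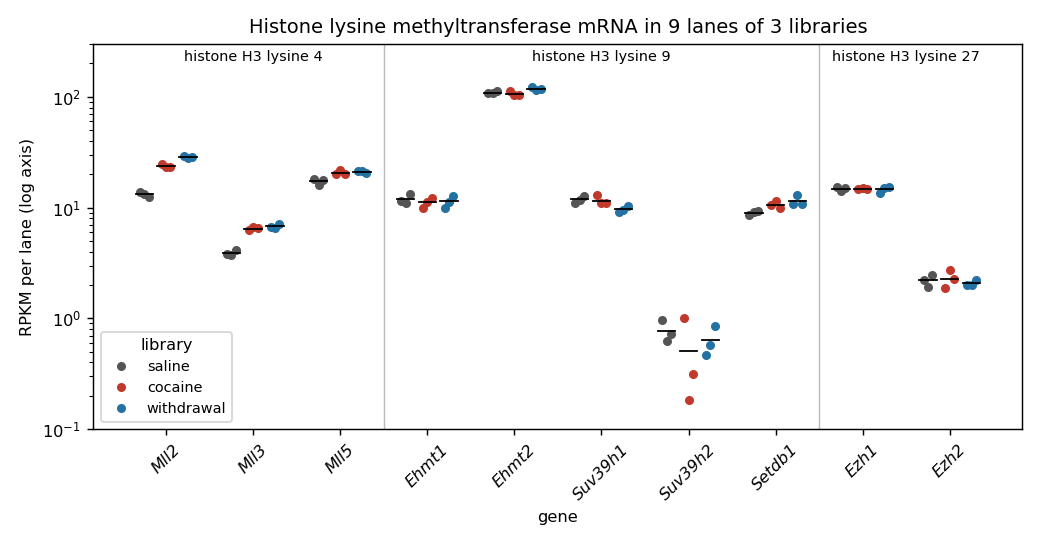
Level of each methyltransferase gene in RPKM (log axis) in the 3 lanes of the saline, cocaine and withdrawal libraries, with a bar at each mean; genes are grouped by the lysine their family methylates. Mll2 and Mll3 stand higher in all cocaine and withdrawal lanes than in all saline lanes, Ehmt2 lies near 109 RPKM in saline, and the Suv39h2 lanes lie at or near 1 RPKM or below.

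The 4 tested H3K9 enzymes had no call in any comparison. Ehmt2 (G9a) and Ehmt1 (GLP) form the complex that places most mono- and dimethyl H3K9 outside constitutive heterochromatin. Ehmt2 was measured at 107.7, 107.8 and 112.2 RPKM in saline, 112.5, 104.0 and 104.4 in cocaine and 121.6, 114.2 and 117.6 in withdrawal. The saline and cocaine lanes overlapped (-0.03 ± 0.042), and all withdrawal lanes lay above both. That difference was small, at 0.11 ± 0.032 against saline and 0.14 ± 0.045 against cocaine, and was not called. With means of 109 ± 2.55, 107 ± 4.83 and 118 ± 3.66 RPKM, Ehmt2 stood above 95.5%, 96.0% and 96.4% of tested genes in the 3 libraries.

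Ehmt1 was measured at 11.5, 10.9 and 13.2 RPKM in saline, 9.91, 11.3 and 12.3 in cocaine and 9.98, 11.3 and 12.8 in withdrawal. The 3 libraries overlapped, and Ehmt1 differed from saline by -0.08 ± 0.12 in cocaine and -0.06 ± 0.13 in withdrawal. The mRNA of Ehmt2 exceeded that of its partner Ehmt1 in every lane, by 8.52 to 9.88 times in saline, 8.47 to 11.4 times in cocaine and 9.17 to 12.2 times in withdrawal, ranges that overlapped.

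Suv39h1 and Suv39h2 trimethylate H3K9 in pericentric heterochromatin. Suv39h1 was measured at 11.04, 11.8 and 12.8 RPKM in saline, 12.9, 10.9 and 10.9 in cocaine and 9.05, 9.57 and 10.4 in withdrawal. Its withdrawal lanes were below all lanes of both other libraries, at -0.28 ± 0.082 against saline and -0.24 ± 0.095 against cocaine, and neither difference reached the size limit. Saline and cocaine overlapped (-0.04 ± 0.097). Suv39h1 was the only tested member whose lanes lay apart in the lower direction in any comparison.

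Suv39h2 was the lowest member, at 0.963, 0.625 and 0.726 RPKM in saline, 1.01, 0.185 and 0.316 in cocaine and 0.470, 0.581 and 0.856 in withdrawal. Only 93.0, 53.9 and 55.9 reads lay behind it, its lanes overlapped between libraries, and no difference was detectable at this depth. Suv39h2 also overlaps Dclre1c, a DNA repair nuclease gene, which leaves its low level uncertain. Suv39h1 exceeded Suv39h2 in every lane, by 11.5 to 18.9 times in saline and 12.2 to 19.3 times in withdrawal, and by 12.7 to 59.0 times in cocaine, where Suv39h2 was at 0.185 RPKM in 1 lane.

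Setdb1 trimethylates H3K9 at retroelements with the corepressor Trim28. It was measured at 8.58, 9.15 and 9.28 RPKM in saline, 10.6, 11.4 and 9.85 in cocaine and 10.8, 13.0 and 10.8 in withdrawal. The cocaine and withdrawal lanes lay above all saline lanes without reaching the size limit, at 0.22 ± 0.066 and 0.34 ± 0.091. Setdb1 overlaps Cers2, a ceramide synthase gene, in RefSeq, so its reads may include some of that gene. Summed over the 5 H3K9 genes, of which Ehmt2 makes up the greater share, the lanes spanned 139.9 to 148 RPKM in saline, 138 to 147 in cocaine and 149 to 152 in withdrawal.

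The H3K27 enzymes Ezh1 and Ezh2, the alternative catalytic subunits of PRC2, had no call and their lanes overlapped in all 3 comparisons. Ezh1, the form typical of non-dividing cells, was measured at 15.4, 14.1 and 15.2 RPKM in saline, 14.7, 15.1 and 14.7 in cocaine and 13.6, 15.1 and 15.2 in withdrawal. It differed from saline by -0.00 ± 0.040 in cocaine and -0.02 ± 0.063 in withdrawal. Ezh2, the form typical of dividing cells, was measured at 2.21, 1.94 and 2.47 RPKM in saline, 1.87, 2.71 and 2.28 in cocaine and 2.01, 2.00 and 2.24 in withdrawal. Its differences were 0.04 ± 0.15 and -0.06 ± 0.094, from 163, 156 and 115 reads in saline, cocaine and withdrawal. Ezh2 overlaps the long non-coding RNA F830010H11Rik in RefSeq, and its model of 2825 bp is shorter than the 6678 bp of the reference, while the Ezh1 model of 7473 bp is close to its 7440 bp, so the per-length level of Ezh2 depends on the model used. With these models Ezh1 exceeded Ezh2 in every lane, by 6.14 to 7.26 times in saline, 5.55 to 7.84 times in cocaine and 6.77 to 7.56 times in withdrawal.

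In saline the order of mean levels was Ehmt2, Mll5, Ezh1, Mll2, Suv39h1, Ehmt1, Setdb1, Mll3, Ezh2 and Suv39h2, from highest to lowest. The lanes of neighbours overlapped for Mll2 with Suv39h1 and for Suv39h1 with Ehmt1, and for no other neighbours. In cocaine Mll2 stood directly below Ehmt2 and above Mll5 and Ezh1, and the neighbours that overlapped were Suv39h1 with Ehmt1 and Ehmt1 with Setdb1. In withdrawal the order was the same down to Ezh1, with Setdb1, Ehmt1 and Suv39h1 next, and of these Ehmt1 overlapped both its neighbours. The ratio of Mll2 to Ehmt1 per lane was 0.949 to 1.21 in saline, 1.88 to 2.48 in cocaine and 2.21 to 2.93 in withdrawal.

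Of the 9 tested members, 2 were called higher and 0 lower in cocaine against saline, where 2.93% of all tested genes were called higher and 2.41% lower. Lanes lay apart for 4 of the 9 (Mll2, Mll3, Mll5 and Setdb1), where 42.1% of all tested genes had lanes apart, so that share was close to the background. The members' median difference was 0.04, beside -0.05 over all tested genes. In withdrawal against saline 2 were called higher and 0 lower, against 3.96% and 3.37% of tested genes, and lanes lay apart for 6 of the 9, 5 of them higher, against 44.2%. The median was 0.11, beside -0.06 over all tested genes. Between withdrawal and cocaine 0 of the 9 were called, where 0.47% of tested genes were called higher and 0.548% lower. Lanes lay apart there for 3 of the 9 (Mll2 and Ehmt2 higher, Suv39h1 lower), against 18.1% of all tested genes, and the median was 0.02 beside -0.01.

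**Figure D2:**
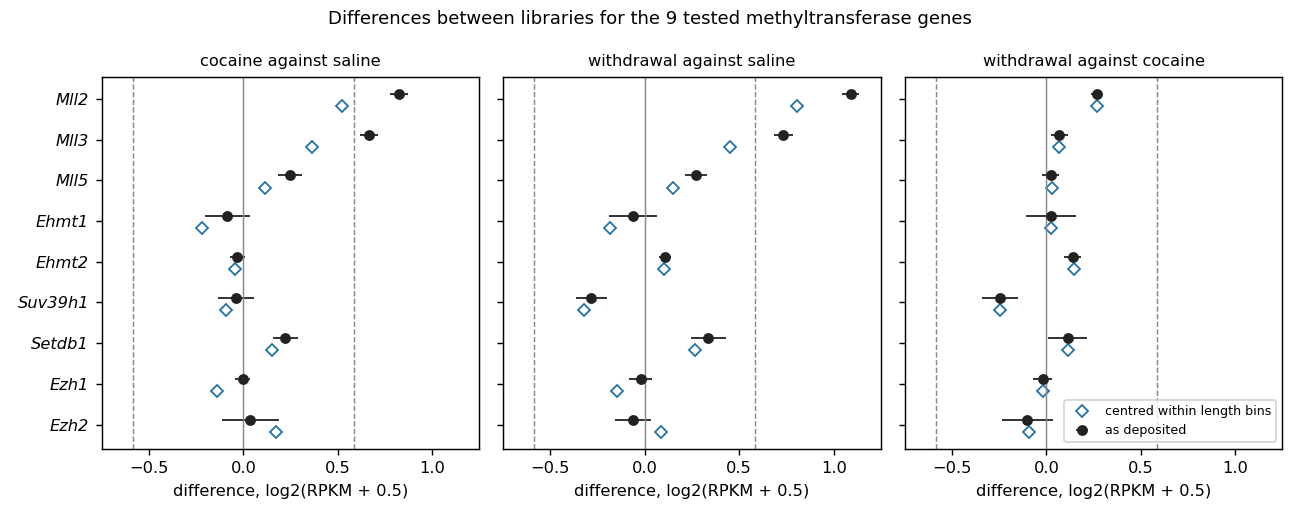
Difference of mean log2(RPKM + 0.5) for the 9 tested genes in 3 comparisons, with the second-named library subtracted from the first; filled points with bars are differences ± SE from 3 lanes, open diamonds are differences centred within bins of gene length, and dashed lines mark 1.5 times. Filled points for Mll2 and Mll3 pass the line against saline, whereas after centring only the withdrawal value of Mll2 does, at 0.81.

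The calls of Mll2 and Mll3 stood beside a relation between gene length and difference that ran through the whole table. Across the 14051 tested genes, which are not independent replicates, Spearman's correlation of gene model length with the difference was 0.464 for cocaine against saline and 0.422 for withdrawal against saline, but 0.0128 for withdrawal against cocaine. Among the 9 members it was 0.633, 0.717 and 0.383. Mll3 and Mll2 have the longest models of the members, at 19998 and 18296 bp, where the median of all tested genes was 3531 bp. The other members ranged from 2825 bp for Ezh2 to 7520 bp for Mll5. What lies behind this relation was not tested.

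Differences were therefore also centred on the median of genes of like length, in 20 bins. Mll2 then stood at 0.52 in cocaine, without a call, and at 0.81 in withdrawal, with a call. Mll3 stood at 0.36 and 0.45 and lost both calls. Mll5 stood at 0.11 and 0.15, Setdb1 at 0.15 and 0.26 and Suv39h1 at -0.09 and -0.32, none of them called. The length bin of Mll2 and Mll3 held 703 genes with models of 9955 to 129833 bp, so it was wide and included many shorter genes. Its medians were 0.30 in cocaine and 0.28 in withdrawal, under the 0.39 and 0.40 of genes of at least 15000 bp. Centring within this bin thus takes off less than the long genes differed by. Within the bin 12 genes had a larger difference than Mll2 in cocaine and 4 in withdrawal, whereas 53 and 45 had a larger difference than Mll3.

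A narrower background of 136 genes with models of at least 15000 bp, chosen after the data had been seen, had a median of 0.39 in cocaine against saline and 0.40 in withdrawal against saline. Of these long genes 32 were called higher and 0 lower in cocaine, and 36 higher and 0 lower in withdrawal. Mll2, Mll3 and Mll1, described below, are themselves among the long genes and among those called. Mll2 exceeded all but 4 of the other long genes in cocaine and all but 1 in withdrawal, and Mll3 exceeded all but 24 and all but 13. Mll2 stood above the long-gene median by 0.43 in cocaine and 0.69 in withdrawal, and Mll3 by 0.27 and 0.33. Between withdrawal and cocaine the median of the long genes was -0.01 with 0 called, and 5 of the long genes exceeded the 0.27 of Mll2.

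**Figure D3:**
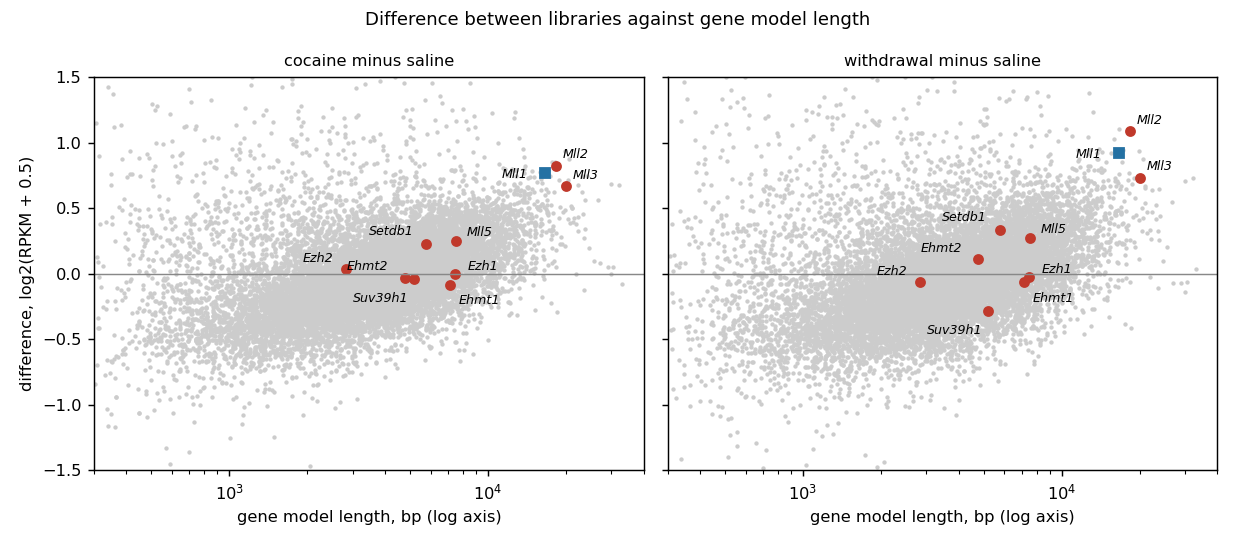
Difference of mean log2(RPKM + 0.5) from the saline library against gene model length in bp (log axis) for cocaine (left) and withdrawal (right); grey points are the tested genes within the plotted range, red circles the 9 tested methyltransferase genes and the blue square Mll1. The grey points rise with length in both panels, with Spearman correlations of 0.464 and 0.422, and Mll2 lies near their upper edge in withdrawal, at 1.09.

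Among the 21 tested genes of 24 other histone lysine methyltransferases, 1 rose and 0 fell in both comparisons with saline, near the 2.93% and 3.96% of all tested genes called higher. It was Mll1 (Kmt2a), another H3K4 methyltransferase of the MLL family, with a model of 16674 bp. Mll1 rose from 10.9 ± 0.164 RPKM in saline to 18.8 ± 0.281 RPKM in cocaine (0.77 ± 0.017) and 21.04 ± 0.825 RPKM in withdrawal (0.92 ± 0.034). After centring by length it stood at 0.47, without a call, and at 0.64, with a call. Above the median of the 136 genes of at least 15000 bp, Mll1 stood by 0.37 in cocaine and 0.53 in withdrawal. Both were under the size limit of 0.58, and 8 and 6 of those genes had a larger difference. The list's median was 0.25 in cocaine and 0.20 in withdrawal, and 0.03 in both after centring by length.

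The other methyltransferases of the list that the naming rule covers were without a call. Setd7, an H3K4 monomethyltransferase, differed from saline by 0.41 ± 0.048 in cocaine and 0.37 ± 0.060 in withdrawal. Dot1l, the H3K79 methyltransferase, differed by 0.39 ± 0.049 and 0.48 ± 0.072. Setd2, which trimethylates H3K36 in transcribed genes, differed by 0.28 ± 0.092 and 0.19 ± 0.083. None of the 21 tested genes was called between withdrawal and cocaine.

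Of 31 tested partners and readers of these enzymes, 1 fell in cocaine and 2 in withdrawal against saline, and 0 rose. These counts are near the background, where 2.41% and 3.37% of all tested genes were called lower. Mphosph8, which encodes a reader of methylated H3K9 (MPP8) in the HUSH silencing complex, was measured at 21.9 ± 0.796 RPKM in saline, 14.4 ± 0.299 in cocaine and 12.1 ± 2.06 in withdrawal. On the log2 scale Mphosph8 fell by 0.59 ± 0.034 in cocaine, just past the size limit of 0.58, and by 0.85 ± 0.14 in withdrawal. Centred by length these were -0.60 and -0.85, both still called. Without saline replicate 1 the cocaine difference was -0.57 and without cocaine replicate 1 it was -0.58, both under the limit.

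Cbx3, which encodes the H3K9 methyl reader HP1 gamma, was at 42.0 ± 3.27 RPKM in saline, 32.2 ± 1.54 in cocaine and 26.99 ± 1.32 in withdrawal. Cbx3 fell by 0.63 ± 0.075 in withdrawal and differed by -0.38 ± 0.074 in cocaine without a call. The withdrawal call was lost after centring by length (-0.44) and without saline replicate 1 (-0.57). Trim28, the partner of Setdb1, differed by -0.06 ± 0.022 and -0.10 ± 0.032, and Wiz, a zinc finger partner of Ehmt1 and Ehmt2, by -0.02 ± 0.070 and 0.19 ± 0.10.

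The PRC2 partners of Ezh1 and Ezh2 had 0 calls among 9 tested genes, with medians of -0.11 in cocaine and -0.04 in withdrawal. Eed and Suz12, its core subunits, differed by -0.05 ± 0.088 and 0.03 ± 0.17 in cocaine and by -0.23 ± 0.10 and 0.07 ± 0.15 in withdrawal. The partners of the MLL enzymes in COMPASS complexes had 0 calls among 13 tested genes, with medians of -0.13 and -0.09. Among them the core subunit Wdr5 differed by -0.13 ± 0.076 and -0.22 ± 0.22. Of 21 tested histone lysine demethylases 0 were called in any comparison, with medians of 0.12 in cocaine and 0.17 in withdrawal, beside -0.05 and -0.06 over all tested genes. Centred by length the medians were 0.01 and 0.06. Of all tested genes, 2.93% were called higher and 2.41% lower in cocaine against saline, and 3.96% and 3.37% in withdrawal against saline. In lists this small, 0 calls are near that background and set these genes apart in no way.

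**Figure D4:**
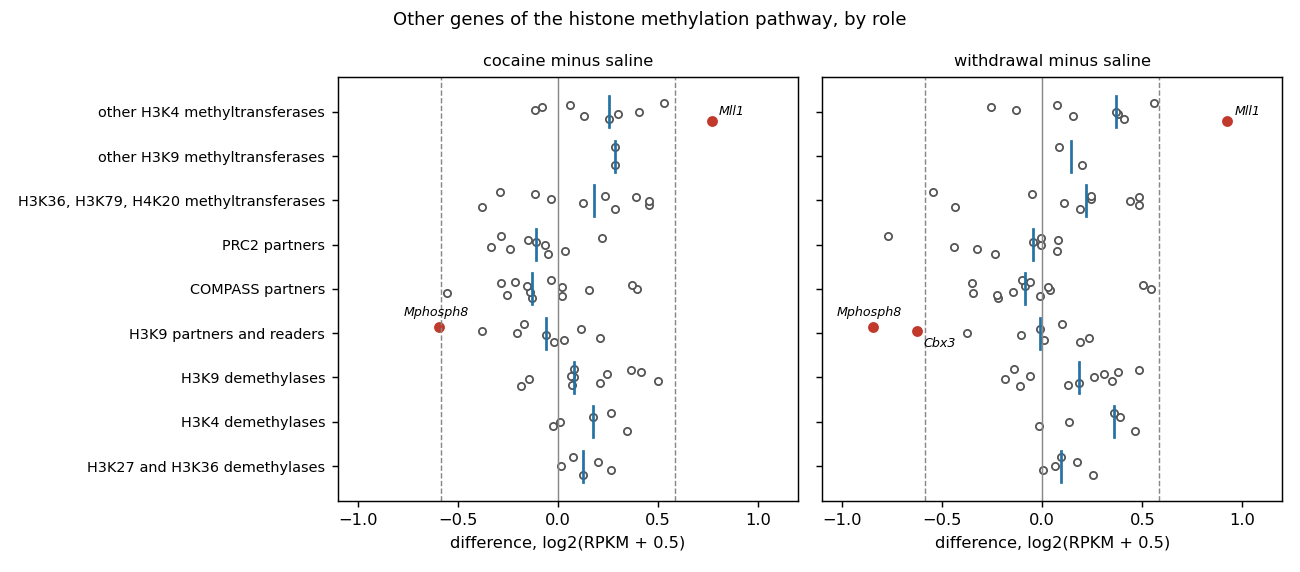
Difference of mean log2(RPKM + 0.5) from the saline library for the tested genes of 9 lists of other histone methylation genes, for cocaine (left) and withdrawal (right); filled red points are called genes, open points are not, blue bars are list medians and dashed lines mark 1.5 times. Mll1 is the only gene called higher, and Mphosph8 and Cbx3 are the only genes called lower; a PRC2 partner past the dashed line in withdrawal had overlapping lanes.

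Marker levels moved between the libraries beside these results. The background for their calls is again 2.93% higher and 2.41% lower in cocaine, and 3.96% and 3.37% in withdrawal. Markers of medium spiny neurons, the main cell type of the tissue, were detected in every lane, at summed levels of 1985 to 2083 RPKM in saline, 1434 to 1519 in cocaine and 1732 to 1748 in withdrawal, with 2 of 10 called lower in cocaine and 1 higher in withdrawal. The 6 endothelial markers summed to 38.9 to 39.5 RPKM in saline, 53.0 to 56.8 in cocaine and 59.5 to 70.1 in withdrawal, with 3 of 6 called higher in cocaine and 6 of 6 in withdrawal. The 7 markers of cortical projection neurons summed to 31.3 to 34.5, 20.6 to 24.0 and 18.99 to 20.6 RPKM, with 1 and 2 of 5 tested called lower. Of these genes, singled out after their values were seen, Slc17a7, a vesicular glutamate transporter, was called in both comparisons, at 18.3 RPKM in saline, 5.54 in cocaine and 3.97 in withdrawal, and Fezf2 in withdrawal (-0.74). Cux2 differed the other way, by 0.44 and 0.48 without a call, and the 5 tested markers had medians of -0.03 and -0.39. The 6 oligodendrocyte, 6 astrocyte and 6 microglia markers had no calls. Oligodendrocyte markers summed to 1830 to 1853 RPKM in saline, 1706 to 1756 in cocaine and 1656 to 1668 in withdrawal. In the same order astrocyte markers summed to 499 to 512, 561 to 567 and 546 to 557 RPKM. Microglia markers summed to 68.8 to 72, 67.4 to 68.1 and 64.4 to 72.4 RPKM. The 6 choroid plexus markers summed to 7.14 to 11.6, 13.3 to 17.3 and 6.78 to 10.4 RPKM in saline, cocaine and withdrawal, with 1 of 3 tested called higher in cocaine. The called marker was Ttr, at 2.37 RPKM in saline, 7.51 in cocaine and 0.949 in withdrawal. Clic6 and Otx2 differed the other way in cocaine, by -0.09 and -0.38 without a call. Between withdrawal and cocaine Ttr was called lower (-2.45). No marker was at 0 in all lanes of a library. Their part in the differences of Mll2, Mll3 and Mll1 was not tested.

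Over the 9 lanes the log2 levels of Mll2 and Mll3 had a Pearson correlation of 0.966, those of Mll2 and Mll5 one of 0.895, and those of Mll3 and Mll5 one of 0.920. Mll2 correlated with Setdb1 at 0.823 and with Suv39h1 at -0.633. Lanes of a library share their RNA, so these values describe 3 libraries and carry no test. Among 11254 genes averaging 3 RPKM or more, those most like Mll2 were Lrp1, a lipoprotein receptor (Pearson 0.996), Bsn, a presynaptic scaffold protein (0.996), and 9830001H06Rik (0.994). Their models were 17292, 15938 and 13352 bp long, where the median of all tested genes was 3531 bp, and the first 2 belong to the genes of at least 15000 bp. Lrp1 was at 45.0 ± 1.71, 75.9 ± 2.01 and 87.2 ± 1.78 RPKM in saline, cocaine and withdrawal. Its order of libraries is that of Mll2, which follows from its choice by correlation over these same lanes.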

How the data were processed

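Poly(A) RNA of 3 pooled libraries was copied with random primers and read in 3 lanes each, with 37 cycles from each end and inserts of about 200 bp, per the labels' protocols. The submitters' processing notes name Bowtie 0.12.7 and mm9; which counter and annotation were used is not given in the sources used here. Values are RPKM made by the authors per lane and per library, per the file headers, with lane totals from 5546362 to 12026754 reads. Lanes of a library had a median SD of 0.114 to 0.130 on the log2 scale. Nothing in the labels separates lanes beyond their number, and lanes of the same number did not deviate together (correlations of -0.051 to 0.076), so no block was used.

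From these values log2(RPKM + 0.5) was computed, averaged over lanes and compared by the size and lane rule of the report, which was tested on simulated data. The pseudocount understates changes of low genes. Gene model lengths were recovered from the step between deposited values, which are whole 37ths of a read within a relative gap of 8.5e-14; for 108 genes the length was multiplied by 37 to match the reference. Reads per gene are RPKM times length and lane total. Count tests were not run because reads are not whole. Alternatives were other pseudocounts, filters, size limits and scalings, no lane condition, centring by length, the authors' composite values, leaving out each lane, and limma 3.58.1 in R 4.3.3 with trend and robust fitting over all 9 lanes (adjusted p of 0.05, Benjamini-Hochberg), also with a lane block. Named were all members, every called gene of the lists (up to 4 per list, comparison and direction), Eed, Suz12, Wdr5, Setd7, Setd2, Dot1l, Wiz, Trim28 and Mll1, and the 3 genes most like the member with the largest difference. The members and lists were chosen with earlier results of these data known.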

Additional observations from a re-analysis of the deposited data

How the results depend on the processing

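The calls of Mll2 and Mll3 in cocaine against saline, 2 members in all, fell to 0 with a limit of 2 times and to 0 after centring by length. In withdrawal against saline the 2 members became 1 under both settings. By limma, which sets single libraries against sequencing noise alone and says nothing of the treatments, 3 members had an adjusted p under 0.05 in cocaine against saline and 5 had one in withdrawal against saline, 4 higher and 1 lower, and 4 with the lane number as a replicate block. Mll5 then had adjusted p-values by limma of 0.0263 in cocaine (0.0462 with the block) and 0.0142 in withdrawal (0.0278), Setdb1 0.0228 in withdrawal, and Suv39h1 0.0488 in withdrawal (0.0732 with the block). Lanes share only a number, and same-numbered lanes did not deviate together. Withdrawal against cocaine had 0 members called under every setting run, with 3 at an unadjusted p under 0.05 by limma. Leaving out any 1 lane kept the count at 2, 2 and 0, with Mll2 at 0.79 to 0.86 in cocaine and 1.05 to 1.12 in withdrawal, and Mll3 at 0.64 to 0.70 and 0.70 to 0.77.

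Of all tested genes, 749 were called in cocaine against saline, 1030 in withdrawal against saline and 143 in withdrawal against cocaine. In that order the counts were 399, 591 and 43 with a filter at 5 RPKM, 3077, 3697 and 653 with a limit of 25%, 146, 190 and 27 with 2 times, 3447, 4239 and 52 by limma, and 3289, 4121 and 39 by limma with the replicate block. For withdrawal against cocaine the count was also 296 without a filter, 314 without the lane condition and 232 to 273 when 1 lane was left out; the other 2 comparisons then gave 844 to 960 and 1176 to 1274. The split into higher and lower moved with the scaling: in cocaine from 411 and 338 to 505 and 230 with the median set to 0, 536 and 203 with lanes at 1 common 75th percentile, and 476 and 98 centred by length; in withdrawal from 557 and 473 to 729 and 309, 767 and 280, and 595 and 174. Mll1 in cocaine lost its call after centring by length (0.47). Mphosph8 in cocaine lost its call with a pseudocount of 1 (-0.58), the median at 0 (-0.54) and the 75th percentile (-0.52), and Cbx3 in withdrawal with the median at 0 (-0.57) and the 75th percentile (-0.55). No called difference of a member or other named gene reversed direction under these settings. Some differences without a call changed sign. At the common 75th percentile Ehmt2 stood at 0.04 and Ezh1 at 0.07 in cocaine. Centred by length, Ezh2 stood at 0.09 in withdrawal and Eed at 0.12 in cocaine. Setd2, also centred by length, stood at -0.02 in cocaine and -0.09 in withdrawal. Trim28 stood at 0.01 in cocaine at the common 75th percentile, and centred by length at 0.04 in cocaine and 0.01 in withdrawal. Some shifts of differences without a call kept the sign and changed the size. Ehmt2 in withdrawal against saline stood at 0.165 with the median at 0 and at 0.182 at the common 75th percentile. Ezh1, centred by length, stood at -0.137 in cocaine and -0.145 in withdrawal against saline. Depth limits Suv39h2 and Ezh2 most, and with 1 library per group no setting bears on variation between mice.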
